A study of Sus scrofa with 48 samples.

Results

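Interferon-stimulated genes were described in the longissimus muscle of 48 pigs, as a set of 9 genes: MX1, MX2, OAS1, OAS2, ISG15, IFIT1, IFIT3, IRF1 and IRF7. A probe of the array belonged to a gene when the array gave the gene's symbol as its name or held it in brackets in its description. This rule found 31 probes, and all of them were well above background on at least 12 arrays, so that 9 of 9 genes and 31 of the 42125 tested probes entered the comparisons. The rule that joined probes to genes read only the names on the array. The 9 genes themselves were chosen with earlier results of these data known.

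The pigs were barrows of a pair of purebred Large White lines, selected in opposite directions for residual feed intake (RFI), which is the feed a pig eats beyond what its growth and maintenance predict. Low RFI pigs (RFIneg) and high RFI pigs (RFIpl) had free access to either a high-fat, fiber-rich diet (HF) or a diet poor in fat and fiber (LF), which made 4 groups of 12 pigs. Their ages are not given in the sources used here, no untreated group exists beside these 4, and each array held the muscle RNA of 1 pig. Each line is a single selected population, so that a line difference cannot be told apart from other differences between both populations.

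Interferons are signalling proteins that cells release when they detect a virus or other danger. They bind receptors that act through JAK kinases and STAT factors, and this switches on a set of antiviral genes in nearly every cell type, muscle fibres included. Basal activity of the same genes differs between individuals without any known infection.

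Within the set, MX1 and MX2 encode GTPases that block virus particles, OAS1 and OAS2 encode enzymes that make the second messenger of RNase L, ISG15 encodes a ubiquitin-like modifier, IFIT1 and IFIT3 encode proteins that bind foreign RNA or form complexes on it, and IRF1 and IRF7 encode transcription factors of the pathway. In the RefSeq annotation of the pig, MX2 lies next to MX1, OAS2 next to OAS1, and IFIT3 next to IFIT1, whereas ISG15, IRF1 and IRF7 have no other gene of the set beside them.

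The probes are 60 bases long, and 10 of them are shown here because the results depend on which probe of a gene is read. MX2 had 3 probes that share no run of 12 bases, and the first and second moved together whereas the third did not:

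MX2 probe 1: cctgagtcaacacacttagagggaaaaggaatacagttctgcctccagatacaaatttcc

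MX2 probe 2: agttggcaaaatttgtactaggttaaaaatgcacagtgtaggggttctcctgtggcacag

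MX2 probe 3: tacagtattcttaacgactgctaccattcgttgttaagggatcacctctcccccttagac

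The next 2 sequences are the probes of OAS1, which do not overlap and which were both low in the same pigs:

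OAS1 probe 1: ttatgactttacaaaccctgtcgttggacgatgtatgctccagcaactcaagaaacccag

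OAS1 probe 2: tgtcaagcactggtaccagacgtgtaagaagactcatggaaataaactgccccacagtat

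The probes of ISG15 overlap. Capitals mark runs of at least 12 bases that a probe shares with another probe of the set, here a run of 43 bases, so these probes are not independent readings:

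ISG15 probe 1: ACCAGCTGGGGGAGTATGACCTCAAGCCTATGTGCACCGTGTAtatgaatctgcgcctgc

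ISG15 probe 2: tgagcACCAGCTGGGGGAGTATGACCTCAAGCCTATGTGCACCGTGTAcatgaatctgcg

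Of the 7 probes of MX1, 3 overlap by 45 to 57 bases and are likewise close to 1 reading:

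MX1 probe 1: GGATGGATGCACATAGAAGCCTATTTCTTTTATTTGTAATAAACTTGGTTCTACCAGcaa

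MX1 probe 2: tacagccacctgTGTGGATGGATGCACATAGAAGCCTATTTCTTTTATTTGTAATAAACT

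MX1 probe 7: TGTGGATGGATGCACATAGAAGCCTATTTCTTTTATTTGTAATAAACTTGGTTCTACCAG

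Levels are given as the log2 of the background-subtracted spot signal minus the mean of the same pig over all tested probes, so that 1 unit is a factor of 2 and a negative level lies below the average probe of the array. Levels of different probes are not comparable with each other. For each gene the probe with the highest mean level is called its main probe, which was the third for MX1, the second for MX2 and the first for the others. Because the samples were pieces of muscle, fewer cells of a type and less RNA per cell cannot be told apart.

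Array quality was read from the scanner files, and no measure of RNA quality was used here. The median signal per array ranged from 52.8 to 107.9. Between 59.2% and 74.2% of probes were well above background, no spot was saturated, and each of the 6 slides held 2 arrays of every group. The labelled tissue was borne out by its markers, since 86 probes of 10 of 10 listed muscle fibre genes were tested and their mean level per pig lay between 8.86 and 9.43 above the array mean. Over the whole array, the line difference passed limma's test at an adjusted p of 0.05 (Benjamini-Hochberg over 42125 probes) for 16.4% of all tested probes.

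MX2 was the only gene of the set with a called line difference. Its level was higher in high RFI pigs at 2 of its 3 probes, and these were the only 2 of the 31 probes called, or 6.45% beside 16.4% of all probes. No probe of the set was called lower in high RFI pigs, and 6.57% of all probes were called higher. A share of this size is below the background and is no result about the set. The paper lists MX2 among its predictors of RFI, from merged arrays that include those of these pigs. The MX2 call is thus no independent finding.

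At its main probe MX2 ranged between -2.61 and -1.25 (median -1.68) in low RFI pigs on LF, and between -1.95 and 0.52 (median -1.11) in high RFI pigs on LF. On HF it lay between -2.24 and -0.71 (median -1.40) in low RFI pigs and between -2.20 and -0.47 (median -1.43) in high RFI pigs. The groups overlapped, and the high RFI pigs on LF stood above the other 3 groups in median, with a lowest pig inside the range of each. The means were -1.18 ± 0.68 (SD, n = 24) for the high RFI line and -1.62 ± 0.46 (SD, n = 24) for the low RFI line, with a line difference of 0.44 ± 0.15 (SE) on the log2 scale, or 1.36-fold, with an adjusted p of 0.0410 by limma. The first probe gave -1.16 ± 0.79 (SD, n = 24) compared with -1.75 ± 0.59 (SD, n = 24), which is higher by 0.59 ± 0.19 (SE), or 1.51-fold, with an adjusted p of 0.0262 by limma. Within each of the 6 slides both probes were higher in high RFI pigs, by 0.169 to 0.792 at the main probe and by 0.169 to 0.961 at the first probe.

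The third MX2 probe was flat. Its level was -2.15 ± 0.21 (SD, n = 24) for the high RFI line and -2.14 ± 0.13 (SD, n = 24) for the low RFI line, with a difference of -0.01 ± 0.05 (SE) with a 95% interval from -0.11 to 0.09 and an adjusted p of 0.908 by limma. It was well above background on all 48 arrays and hardly varied from pig to pig, with a within-group SD at the 19.8th percentile of all complete probes, against the 93.6th and 88.0th percentile for the first and second probe. The line difference of MX2 was thus measured at 2 probes and not at the third.

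The MX2 call at the main probe was close to the threshold. It was lost when any of 16 single pigs was left out, with adjusted p up to 0.0674, whereas the first probe stayed under 0.05 without each of the 48 pigs, with adjusted p from 0.00937 to 0.0444. Replicate 3 of the high RFI pigs on LF was the highest pig at the main probe and the second highest at the first probe. Without it the difference was 0.38 (adjusted p of 0.0618 by limma) at the main probe. At the first probe it was 0.55 (adjusted p of 0.0386 by limma).

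**Figure D1:**
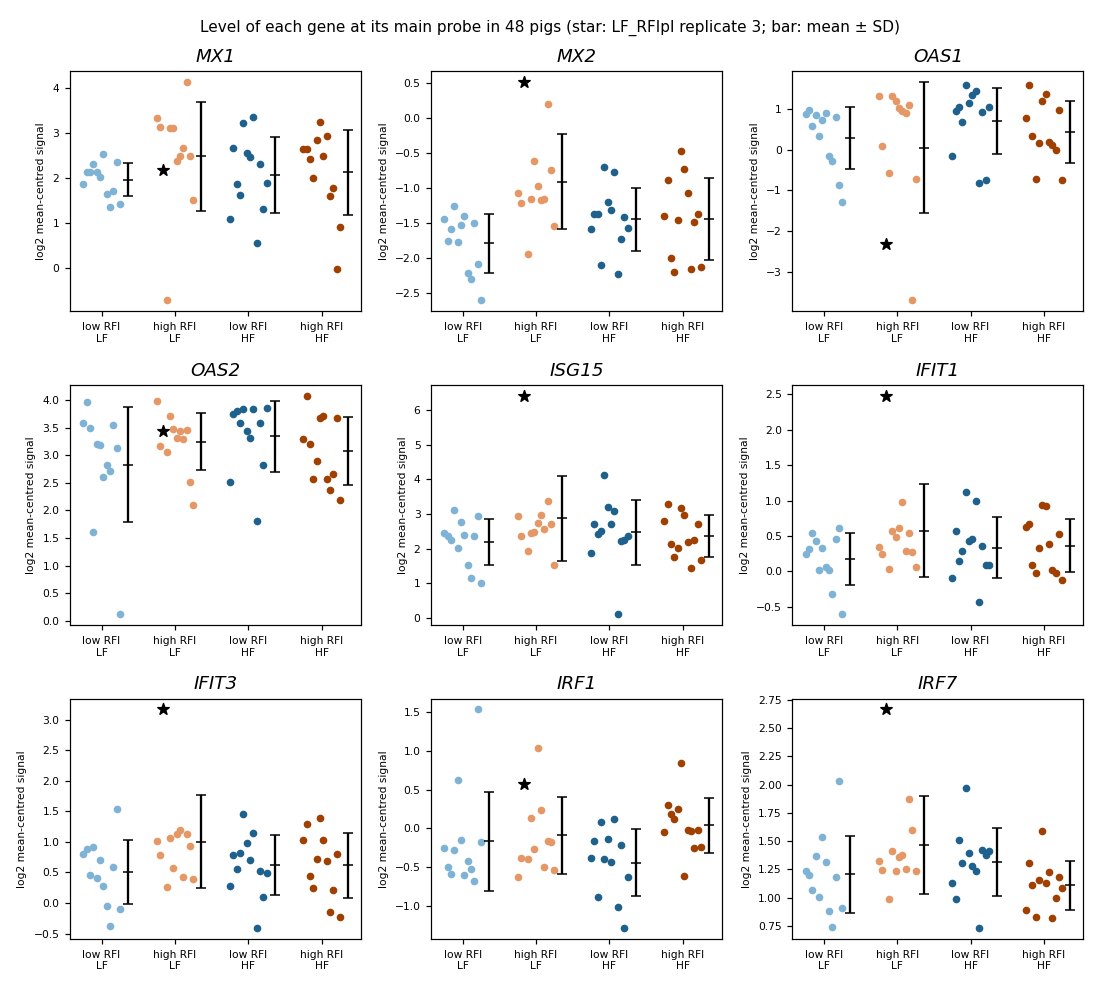
Level of each gene at its main probe (log2 mean-centred signal, y axis) in the 4 groups of 12 pigs, with 1 point per pig, a star for replicate 3 of the high RFI pigs on LF, and the group mean ± SD beside the points. The groups overlap in all 9 genes, and the star is the highest of 48 pigs for MX2, ISG15, IFIT1, IFIT3 and IRF7 but the second lowest for OAS1.

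Split by diet, the MX2 difference lay on the LF side. On LF, high RFI pigs were higher by 0.88 ± 0.22 (SE) at the main probe and by 1.0 ± 0.27 (SE) at the first probe, with adjusted p of 0.0182 and 0.0320 by limma, and these 2 of 31 probes (6.45%) compare with 2.47% of all probes called within LF. On HF the differences were 0.00 ± 0.22 (SE) and 0.18 ± 0.27 (SE), with adjusted p of 0.995 and 0.712 by limma. Within HF, 0 of 31 probes were called by limma, with 2 at an unadjusted p under 0.05, beside 6.39% of all probes called.

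That the line difference of MX2 depended on the diet was not shown. The interaction was -0.88 ± 0.31 (SE) at the main probe and -0.81 ± 0.38 (SE) at the first probe, with unadjusted p of 0.00648 and 0.0373 but adjusted p of 0.999 for both by limma. In the test of the interaction 0 of 31 probes passed in limma, with 3 at an unadjusted p under 0.05, and 0% of all tested probes passed, so that no probe on the array met this test. The third probe with an unadjusted p under 0.05 was the main probe of IRF7, at -0.46 ± 0.19 (SE). The interaction was negative at 28 of 31 probes, which share pigs and mostly vary together, so these are not 28 separate readings.

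**Figure D2:**
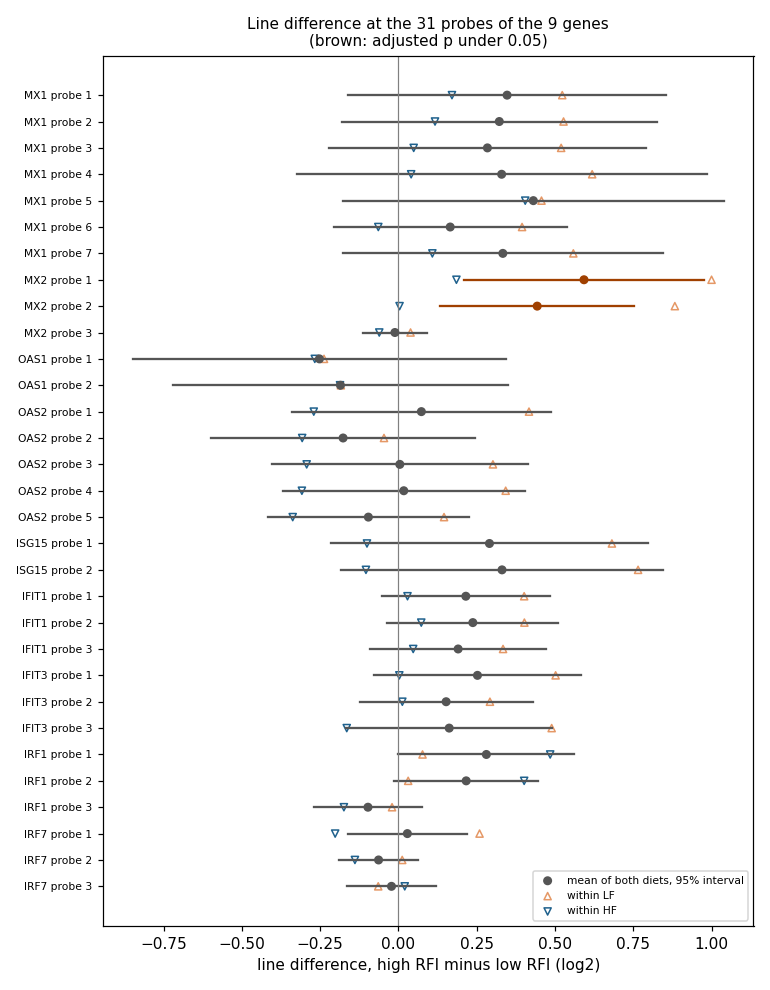
Line difference (high RFI minus low RFI, log2, x axis) at the 31 probes (y axis), as a point with its 95% interval, with the differences within LF and within HF as open triangles. Brown marks an adjusted p under 0.05, which 2 MX2 probes reached at 0.59 and 0.44, while the other 29 intervals include 0.

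MX1, the neighbour of MX2, was not called at any of its 7 probes. At its main probe the levels of low RFI pigs ranged between 1.36 and 2.53 (median 2.08) on LF and between 0.56 and 3.36 (median 2.1) on HF. Those of high RFI pigs ranged between -0.72 and 4.14 (median 2.58) on LF and between -0.03 and 3.26 (median 2.46) on HF. High RFI pigs held both the highest and the 2 lowest MX1 levels of the 48, and the groups overlapped throughout. The line difference was 0.28 ± 0.25 (SE), with a 95% interval from -0.22 to 0.79 and an adjusted p of 0.464 by limma, and it was positive at 7 of 7 probes.

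OAS1 and OAS2 were not called between the lines. At the main probe of OAS1, low RFI pigs ranged between -1.28 and 0.97 (median 0.66) on LF and between -0.83 and 1.59 (median 1.0) on HF, and high RFI pigs between -3.71 and 1.32 (median 0.93) on LF and between -0.73 and 1.60 (median 0.27) on HF. The lowest pig was not well above background, so that its level is only an upper bound. The difference between the lines was -0.25 ± 0.30 (SE), with an adjusted p of 0.597 by limma. Among the high RFI pigs on LF, 2 pigs at -2.31 and -3.71 lay below all other pigs of the study. OAS2 at its main probe ranged between 0.12 and 3.97 (median 3.16) and between 1.81 and 3.86 (median 3.58) in low RFI pigs on LF and HF, and between 2.1 and 3.99 (median 3.37) and between 2.20 and 4.08 (median 3.05) in high RFI pigs. Its line difference was 0.07 ± 0.21 (SE), with a 95% interval from -0.34 to 0.49 and an adjusted p of 0.846 by limma.

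ISG15 had its extremes in 2 pigs. Its main probe ranged between 1.0 and 3.11 (median 2.37) in low RFI and between 1.52 and 6.42 (median 2.65) in high RFI pigs on LF, and between 0.11 and 4.13 (median 2.47) in low RFI and between 1.44 and 3.29 (median 2.23) in high RFI pigs on HF. The line difference was 0.29 ± 0.25 (SE), with an adjusted p of 0.451 by limma, and it was 0.13 without the pig at 6.42. IFIT1 and IFIT3 differed by 0.22 ± 0.13 (SE) and 0.25 ± 0.16 (SE), with adjusted p of 0.269 and 0.298 by limma. IFIT1 was higher in high RFI pigs within each of the 6 slides at its 3 probes, by 0.106 to 0.344, yet no probe of it was called.

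Among the transcription factors, IRF1 was the nearest to a call after MX2. Low RFI pigs ranged between -0.68 and 1.54 (median -0.35) on LF and between -1.29 and 0.13 (median -0.39) on HF, and high RFI pigs between -0.63 and 1.04 (median -0.22) on LF and between -0.61 and 0.85 (median -0.02) on HF. The line difference was 0.28 ± 0.14 (SE), with an adjusted p of 0.162 by limma. It was 0.36 with an adjusted p of 0.0344 by limma when replicate 11 of the low RFI pigs on LF, the pig at 1.54, was left out, and this was the only 1 of 48 pigs whose removal gave a call. The first and second IRF1 probe followed each other across pigs, whereas the third, with a line difference of -0.10, did not. IRF7 differed by 0.03 ± 0.09 (SE) between the lines, with an adjusted p of 0.872 by limma and a 95% interval from -0.16 to 0.22.

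No gene of the set was called between the diets. Of the 31 probes 0 were called by limma for HF against LF and 0 had an unadjusted p under 0.05, beside 0.42% of all probes called. The differences ranged from -0.16 to 0.40, with the highest values for OAS1 at 0.40 ± 0.30 (SE) with an adjusted p of 0.614 by limma. Within low RFI pigs 0 of 31 probes were called by limma, with 2 OAS2 probes at an unadjusted p under 0.05, beside 0.199% of all probes. Within high RFI pigs 0 of 31 were called by limma, with 3 at an unadjusted p under 0.05, beside 0% of all probes. Those 3 were the first and second MX2 probe, lower on HF by a log2 difference of -0.54 at each, and the main probe of IRF7 at -0.35.

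Most of the genes varied widely between pigs of 1 group. The SD within groups was 0.89 for MX1, 1.06 for OAS1, 0.73 for OAS2 and 0.89 for ISG15 at the main probes, against a median of 0.258 over all complete probes. Of the 31 probes, 17 lay above the 90th percentile of this SD over the array. The SD was 0.58 for IFIT3, 0.55 for MX2, 0.50 for IRF1, 0.47 for IFIT1 and 0.33 for IRF7. A share of this variance went with the slides. Slides held 36.1% of the variance within groups for OAS1, 29.2% for MX1 and 21.7% for OAS2 at the main probes. For the other genes they held from 11.2% for IRF7 to 18.7% for IFIT3.

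Some pigs lay far from their group. A distance of at least 2 on the log2 scale from the group median at a main probe, a limit set after the values were seen, was found for 9 pairs of a gene and a pig. These fell in 6 pigs.

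Replicate 3 of the high RFI pigs on LF was far above its group for ISG15 (6.42, which is 3.77 above the median), IFIT3 (3.16, 2.19 above) and IFIT1 (2.48, 2.07 above). It was also above its group for MX2 by 1.63, for IRF7 by 1.32 and for IRF1 by 0.80. In the same pig MX1 and OAS2 deviated by -0.40 and 0.06, whereas OAS1 was at -2.31, a deviation of -3.24. All probes of each of these 4 far genes moved the same way, from 2.07 to 2.20 for the 3 IFIT1 probes and from -3.63 to -3.24 for the 2 OAS1 probes, of which 1 was well above background.

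The high values of this pig reached beyond the set. It was the highest of 48 pigs at 12 of the 31 probes, a count that includes the values by which it was picked. Outside the set it was the highest at 23 of 57 probes of other interferon-induced effectors, compared with 4.2% of all tested probes. Examples are ISG20, an exonuclease (2.64 above the group median), XAF1 (2.45), OASL (2.40) and IFI6 (2.33). Of the 24 tested leukocyte marker probes 0 were highest in this pig, a count that says little beside a share of 4.2% over all probes. Their mean level of -0.44 lay within the range of its group, from -1.39 to -0.22, and above the group median of -0.69. The median deviation over these probes was 0.18. Its mean marker level was the lowest of its group for fibroblasts (3.51, with a group maximum of 4.49) and for endothelium (-0.87, with a group maximum of -0.25). Its adipocyte marker level was -1.72, in a group range from -2.15 to 0.15, with a median deviation of -1.07 over the probes. The part of these markers in the values of this pig was not tested. Of its probes 61.7% were well above background.

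In 3 further pigs 1 gene was at least 2 below the group median. Replicate 4 of the high RFI pigs on LF had an MX1 level of -0.72, with deviations between -3.67 and -2.25 over the 7 MX1 probes, and the other 8 genes were also below the group median, by deviations from -1.49 for OAS1 to -0.18 for IRF1. Replicate 11 of the high RFI pigs on HF had an MX1 level of -0.03, with deviations between -3.10 and -1.50 over the 7 probes, whereas the other genes deviated by -0.00485 to 0.711. Replicate 11 of the high RFI pigs on LF had an OAS1 level of -3.71, where neither probe was well above background, and its other genes deviated by -0.86 to 0.37. In each of these pigs the gap was seen at every probe of the gene, the non-overlapping ones included.

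The remaining pigs were replicate 12 of the low RFI pigs on LF and replicate 9 of the low RFI pigs on HF. The former had an OAS2 level of 0.12, a deviation of -3.04, together with -1.94 for OAS1 and 0.18 for IRF1. The latter was below its group for all 9 genes, by deviations from -2.36 for ISG15 to -0.61 for IRF7.

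**Figure D3:**
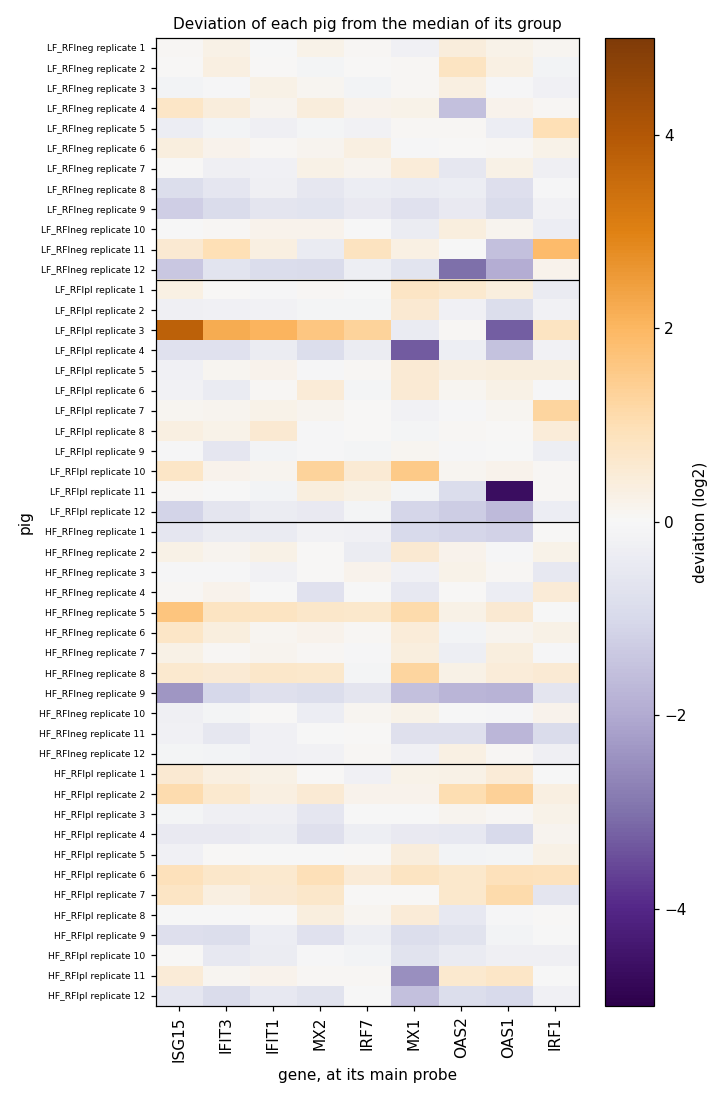
Deviation of each of the 48 pigs (rows, by group) from the median of its group at the main probe of each gene (columns), on the log2 scale given by the colour bar. LF_RFIpl replicate 3 is high for 5 genes and low for OAS1, and dark cells mark MX1 in LF_RFIpl replicate 4 and HF_RFIpl replicate 11 and OAS1 in LF_RFIpl replicate 11.

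Whether the genes rose and fell together from pig to pig was examined on the deviations from the 4 group means, for 36 pairs of main probes over 48 pigs. Pearson's r was positive for 35 pairs and passed a two-sided permutation test after Benjamini-Hochberg adjustment over the pairs for 27 of 36, and Spearman's rho for 30 of 36.

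ISG15, IFIT1 and IFIT3 formed the tightest group. For ISG15 and IFIT3, r was 0.92 and rho 0.91, with adjusted permutation p of 3.6e-05 and 3e-05, which rest on the smallest p that 100000 permutations can give. Without the 2 pigs farthest in ISG15, r was 0.89, and within the 6 slides it ranged from 0.83 to 0.99. IFIT1 and IFIT3 gave an r of 0.92 (0.87 without the 2 farthest pigs), and ISG15 and IFIT1 an r of 0.91 (0.86 without them), with rho of 0.90 and 0.87 and the same adjusted permutation p. MX2 followed this group, with an r of 0.81 and a rho of 0.80 to ISG15 (adjusted permutation p of 3.6e-05 and 3e-05), 0.79 without the 2 farthest pigs, and 0.69 to 0.91 within slides. IRF7 followed as well, with an r of 0.83 and a rho of 0.70 to ISG15 (adjusted permutation p of 3.6e-05 and 3e-05), and 0.73 without the 2 farthest pigs.

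With ISG15, IFIT1 and IFIT3, OAS1 gave a low r but a higher rho, and r was higher without 2 pigs. With IRF1 and IRF7 its rho was low as well, at 0.07 and 0.22 (adjusted permutation p of 0.632 and 0.138). For OAS1 and ISG15, r was 0.18 (adjusted permutation p of 0.234) and rho 0.49 (adjusted permutation p of 0.00072), and r was 0.63 without the 2 pigs farthest in OAS1 and 0.52 without replicate 3 of the high RFI pigs on LF alone. Within slides the r of OAS1 and ISG15 ranged from -0.58 to 0.88 and was positive in 5 of 6. It was 0.11 over the 48 pigs when slide differences were subtracted along with the group means. With its neighbour OAS2, OAS1 gave an r of 0.61 and a rho of 0.65 (adjusted permutation p of 6.55e-05 and 3e-05), and 0.71 without the 2 farthest pigs. The neighbours MX1 and MX2 gave an r of 0.58 and a rho of 0.55 (adjusted permutation p of 0.00012 and 0.00027), and 0.60 without the 2 farthest pigs. For IRF1, r ranged from 0.01 with OAS1 to 0.56 with IFIT3.

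**Figure D4:**
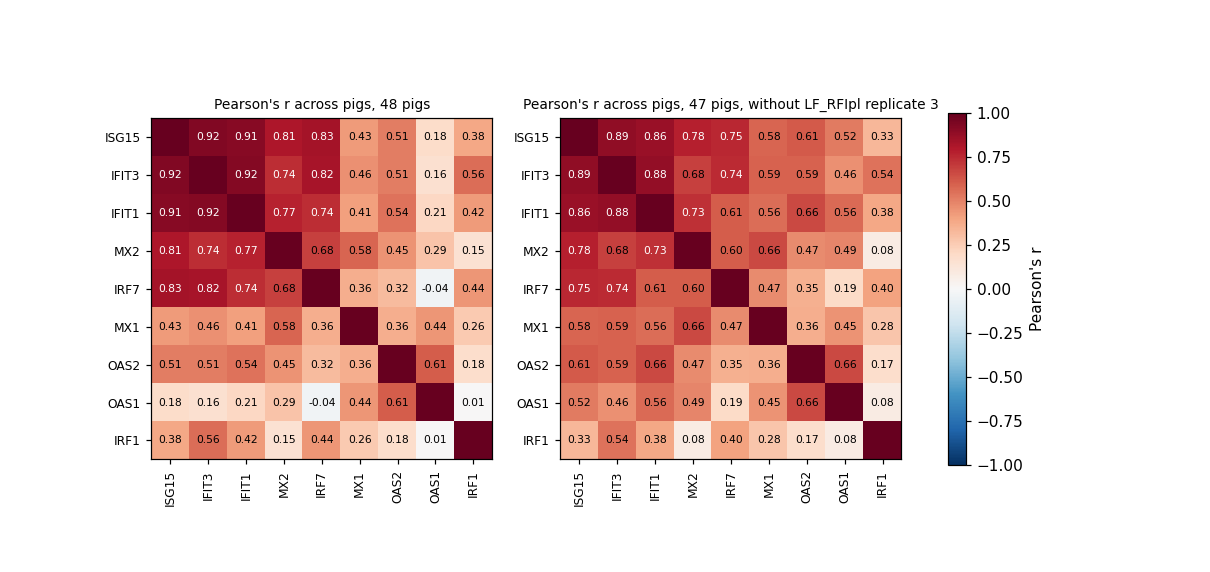
Pearson's r between the main probes of the 9 genes across pigs, after subtraction of group means, for 48 pigs (left) and without LF_RFIpl replicate 3 (right), with colour and printed number giving r. ISG15, IFIT1 and IFIT3 stay between 0.86 and 0.92 in both panels, while OAS1 with ISG15 goes from 0.18 to 0.52.

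Probes of 1 gene mostly varied together. The r between probes of a gene across the 48 pigs was 0.85 to 1.0 for the 21 pairs of MX1, 0.92 for OAS1, 0.60 to 0.97 for the 10 pairs of OAS2, 0.96 to 0.97 for IFIT1 and 0.89 to 0.95 for IFIT3. For MX2 the first and second probe gave 0.91, but the third gave 0.16 and 0.26 with them. The third probe likewise gave 0.22 and 0.16 with the others for IRF1, and -0.07 and 0.02 for IRF7. Over the 48 pairs, these 6 had adjusted permutation p of r between 0.0844 and 0.876, and the other pairs at most 2.29e-05. Values for IRF1 and IRF7 above are those of their first probes.

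Genes with the most similar course were ranked by their median r with the 9 main probes over the 48 pigs, as a description. Among the first 10 genes were EIF2AK2, ISG12(A), XAF1, IRF9, PARP12, DHX58, HERC5, IFI6 and LGALS9, with a median r of 0.70 to 0.76. Without replicate 3 of the high RFI pigs on LF their median r was 0.63 to 0.70, and the 99th percentile over 41957 complete probes was 0.341 with all pigs. Of the 10, 7 were on the lists of pathway genes, among them EIF2AK2, the kinase that halts translation on double-stranded RNA, and IRF9, the DNA-binding part of the STAT complex. LGALS9, a galectin, was the 1 of the 10 with a called line difference, at 0.39 with an adjusted p of 0.0375 by limma.

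The other genes of the pathway were read from lists of ligands, receptors, signalling proteins, sensors, other IRF factors, effectors and negative regulators. Of the ligands, IFNA1 and IFNB1 were well above background on at most 1 and 2 arrays and were not tested, and IFNG and IL29 differed by -0.11 and -0.14 between the lines without a call by limma. Of 11 receptor probes 1 was called (9.09%, beside 16.4% of all probes). It was a probe of IFNGR1 (a subunit of the interferon gamma receptor), higher by 0.22 ± 0.06 (SE) in high RFI pigs. The other IFNGR1 probes, at 0.19, 0.15, -0.01 and -0.004, were not called.

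Signalling probes went both ways. Of 26, 4 were called higher and 4 lower in high RFI pigs, or 30.8% beside 16.4% of all probes. STAT2 was higher at 3 probes by 0.17 to 0.25, and TYK2, a kinase of the JAK family, was lower at 2 by -0.28 and -0.20. The other TYK2 probes, at 0.48, 0.10 and -0.06, were not called, so the direction of TYK2 depended on the probe. JAK2 was lower at 1 probe (-0.34) and higher at another (0.22), and IRF9 was lower at 1 probe (-0.20) that is not the probe named above. The IRF9 probe named above had a line difference of 0.22 without a call. Without replicate 3 of the high RFI pigs on LF, 1 probe was called higher and 4 lower.

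Of 25 probes for sensors and adaptors, 3 were called higher and 4 lower, or 28% beside 16.4%. MYD88, an adaptor of Toll-like receptors, was higher by 0.53 and 0.33 and TBK1, a kinase that activates IRF factors, by 0.46, whereas MAVS, the mitochondrial adaptor, was lower by -0.26 and -0.25 and TRAF6, a ubiquitin ligase, by -1.08 and -0.21. The called TBK1 probe was well above background on only 30 arrays. The other TBK1 probe, well above it on all 48, gave 0.09 without a call. IRF5 was higher by 0.45, as 1 of 6 probes of other IRF factors (16.7%).

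Effectors that were called were mostly higher in high RFI pigs. Of 57 probes 12 were called higher and 1 lower, or 22.8% beside 16.4% of all probes, with a median line difference of 0.24 beside -0.03 over all probes. The genes called higher were IFIT2, IFIT5, BST2, SAMHD1, XAF1, PARP14, TAP1 and PSMB8, and PML was called lower. IFIT2, IFIT5, XAF1, PARP14, TAP1 and PML were each called at 1 probe and had further probes without a call. The called PARP14 probe was well above background on only 13 arrays, and the other PARP14 probe gave 0.08. SAMHD1, which depletes nucleotides, rose at 3 probes by 0.31 to 0.55, and the immunoproteasome subunit PSMB8 at 3 probes by 0.56 to 0.59. XAF1 rose by 0.78 ± 0.24 (SE), BST2, which tethers virus particles, by 0.41 ± 0.11 (SE), and IFIT2, next to IFIT3 in the genome, by 0.28 ± 0.09 (SE). Without replicate 3 of the high RFI pigs on LF 9 were called higher and 1 lower. The 31 probes of the 9 genes had a median difference of 0.19, with 23 of 31 above 0. Among negative regulators SOCS3, an inhibitor of JAK kinases, was higher at 2 of 12 probes by 0.85 and 0.78, and IRF2BP1 was lower by -0.14, which makes 25% of these probes called.

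Markers of other cell types were read beside these differences. Of 24 leukocyte probes 4 were called higher in high RFI pigs and 0 lower, for CD14, CD163 and CSF1R, which mark monocytes and macrophages. This is 16.7%, beside 16.4% of all probes called in either direction and 6.57% called higher. The mean leukocyte level per pig ranged between -1.44 and -0.25 (median -0.82) in low RFI and between -1.39 and -0.22 (median -0.69) in high RFI pigs on LF, and between -1.85 and -0.56 (median -1.12) and between -1.50 and 0.12 (median -0.80) on HF. CD4 was well above background on 1 array. Fibroblast probes were called higher at 4 of 15 (26.7%), for COL1A1 and COL1A2, endothelial probes at 2 of 16 (12.5%), adipocyte probes at 0 of 17, and muscle fibre probes lower at 26 of 86 (30.2%). Of all 42125 tested probes, 2768 were called higher and 4151 lower. The part of these markers in the MX2 difference and in the effector counts was not tested.

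**Figure D5:**
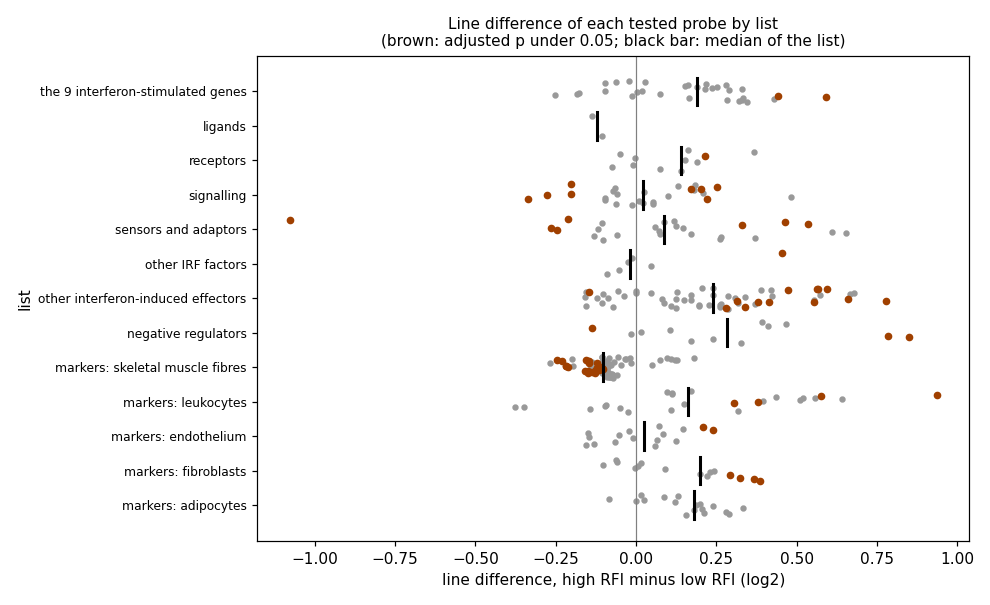
Line difference (high RFI minus low RFI, log2, x axis) of each tested probe by list (y axis), with brown for an adjusted p under 0.05 and a black bar at the median of the list. The median is 0.19 for the 9 genes and 0.24 for other interferon-induced effectors, and the called effector probes lie to the right of 0 in 12 of 13 cases.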

How the data were processed

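Muscle RNA of 48 barrows was labelled and hybridised on one-colour Agilent arrays, 1 array per pig. The authors deposited scanner files with spot intensities from Agilent Feature Extraction 10.7.3.1, and a table of log2 values per probe, found here to be the log2 median signal of each spot, shifted to an array median of 0, for 34472 probes. The submitters' processing notes name R 2.10.0. The genome build is not given in the sources used here, so no coordinates are printed.

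From these files, control and outlier spots were left out, and the background-subtracted intensities of spots of the same probe were averaged. The log2 of this average was taken, and each array was centred on the mean of its tested probes. Tests were limited to the 42125 of 60305 probes that were well above background on 12 or more of the 48 arrays, with 169 missing values. Lines, diets and their interaction were tested with limma 3.58.1 in R 4.3.3 on 4 group means, with Benjamini-Hochberg adjustment over all tested probes and a threshold of 0.05. This fit was first tested on simulated data. Correlations and permutation tests used 100000 permutations (Python 3.11.15, numpy 2.4.6, scipy 1.17.1). The number of arrays limits the precision, and the p-values of limma weigh a difference against the spread between these pigs. Replicate numbers follow the order of the samples and pair no pigs.

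The genes and the pathway and marker lists were chosen with earlier results of these data known. All member probes were named. Of the pathway lists, genes of called probes were named. Of the 10 genes with the most similar course, 1 is not reported here. List genes were found by the symbol on the array, which leaves out probes under an older name. Alternatives for the scaling, background correction, filter, outlier spots, slide, scan day, array weights, the deposited log2 table and each left-out pig were run. Leaving out replicate 3 of the high RFI pigs on LF in the correlations was added after seeing the data. The females of another array and the feed efficiency of single pigs were not analysed here.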

Additional observations from a re-analysis of the deposited data

How the results depend on the processing

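The count of member probes called for the line difference was 2 under 9 of the 10 alternatives for the processing, and 1 without a filter on dim probes. The same held for the line difference within LF, with 1 probe called without the filter, where more probes were adjusted for. Leaving out each pig in turn gave 1 to 3 probes for the line difference and 1 to 2 within LF. The pigs whose removal left 1 probe within LF were replicates 8, 9 and 12 of the low RFI and 3, 6, 10 and 11 of the high RFI pigs on LF. The same pigs left 1 probe in the line difference over both diets, as did replicates 4, 9, 10 and 12 of the low RFI and 2, 6, 7 and 8 of the high RFI pigs on HF. Without replicate 11 of the low RFI pigs on LF the 3 probes were the first of MX2 and the first and second of IRF1. The other 5 comparisons gave 0 called probes under all of these alternatives.

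Reversed signs were found only at differences near 0. With the mean over all probes of a gene, the line difference was -0.0358 for OAS2 and -0.0192 for IRF7, and with array weights the diet difference of IFIT1 was 0.0135. Over the left-out pigs, the line difference ranged from -0.0501 to 0.125 for OAS2 and from -0.0262 to 0.0657 for IRF7, and the diet difference from -0.192 to 0.0449 for ISG15, from -0.0616 to 0.0609 for IFIT1 and from -0.109 to 0.00516 for IRF1. The cause of these changes was not tested.

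The number of gene pairs with a called r was 25 to 31 of 36 under the 5 alternatives, beside 27. No paired analysis was possible because the labels give no replicate numbers that join pigs across groups. With 12 pigs a group, the 95% intervals of the line difference at main probes reached 0.31 to 0.60 on the log2 scale on each side of the estimate for the genes other than IRF1, IRF7 and IFIT1.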
